A study of Mus musculus with 5 samples.

Results

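The G1 regulators described here are 10 genes, chosen by name, with earlier results of these data known: the D cyclins Ccnd1, Ccnd2 and Ccnd3, the kinases Cdk4 and Cdk6, their target Rb1, the CIP/KIP inhibitors Cdkn1a and Cdkn1b, and the INK4 inhibitors Cdkn2a and Cdkn2c. They are 10 of 32286 features counted by single-cell RNA sequencing (scRNA-seq) of 5 synovial sarcoma (SyS) tumours of hSS2 mice, and all 10 passed the filter on low counts in every comparison. In hSS2 mice the human SS18::SSX2 cDNA sits in Rosa26 behind a stop cassette, and TATCre, a cell-permeant Cre protein, was injected into the hindlimb to remove it, so the recombined cells were not restricted by a promoter. All 5 tumours share this genotype and treatment, were taken at morbidity, and differ in the histology written in their labels: 2 biphasic (BP), 1 monophasic (MP), 1 mixed (MP+BP) and 1 poorly differentiated and monophasic (PD+MP). There was no sample of normal tissue or untreated limb among them, so the comparisons are between cell classes, cycle states and labels within these tumours. Labels with 1 tumour have no replicate, and the labels of both BP tumours share a leading number. Whether they came from 1 animal is not given in the sources used here, so p-values measure the spread between these 5 tumours.

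D cyclins are made in response to growth signals, bind CDK4 or CDK6, and the active kinase phosphorylates RB, which then releases E2F factors that switch on the genes of S phase. INK4 proteins such as p16 and p18 bind CDK4 and CDK6 directly, whereas CIP/KIP proteins such as p21 and p27 bind cyclin-CDK complexes and inhibit CDK2 most strongly. In sarcomas this axis is known for loss of the Cdkn2a locus and for gain of Cdk4 or of D cyclins, and CDK4/6 inhibitors act on its kinase step.

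Of 51670 droplets called as cells, 39559 remained after filtering and removal of likely doublets, with a median per tumour of 6339.5 to 8535.5 unique molecular identifiers (UMIs, 1 per captured RNA molecule) per cell. Tumour totals ranged from 8.99963e+07 to 1.18649e+08 UMIs. Clustering, from which the 10 genes were kept out, gave 32 clusters. Of these, 20 clusters with 30724 cells (77.7%) were SyS-like by at least 3 of 12 markers. Sox2 counted toward the name of each of them and Tle1 of only some, while Zic1 counted only in clusters led by a BP tumour. The classes compared with the SyS-like cells were stromal (1258 pericyte-like and 147 fibroblast-like cells), endothelial-like (2427 cells) and macrophage-like (3868 cells). The stromal sum of PD+MP held 123 fibroblast-like and 39 pericyte-like cells, while the other stromal sums were mostly pericyte-like. The 12 SyS naming markers summed to between 3492 and 5002 CPM (UMIs of a gene scaled to a common total of UMIs) in SyS-like cells, with no marker at 0, and in the other 3 classes to between 3.11% and 10.5% of the level in the SyS-like cells of the same tumour, with 0 to 4 markers at 0. Levels below are CPM of the UMIs summed over the cells of 1 class in 1 tumour. They are shares of all RNA counted, so a lower level and more RNA from other genes cannot be told apart, and levels of different genes are not scaled to transcript length, since 3′ tags were counted.

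Ccnd2 (chr6:127125162-127152193, minus strand, GRCm38) was the D cyclin with most UMIs in the SyS-like cells of every tumour. Its level reached 3057 CPM (BP replicate 1) and 3666 CPM (BP replicate 2) in the BP tumours, 1779 CPM in MP+BP, 783 CPM in MP and 1068 CPM in PD+MP. The level was high in both BP tumours, intermediate in MP+BP and low in MP and PD+MP, a range of 4.68-fold between the lowest and the highest tumour. Ccnd1 (chr7:144929931-144939925, minus strand), the D cyclin of mitogen-driven cells, stood at 437, 426, 419, 626 and 464 CPM in the same order. Only MP lay apart, above the other 4 tumours. Ccnd3 (chr17:47505051-47599691, plus strand), the D cyclin most used by lymphoid cells, was lower, at 40.0, 41.9, 52.3, 60.1 and 53.2 CPM. Among all UMIs of the 3 D cyclins in SyS-like cells, Ccnd2 made up 86.5% (replicate 1) and 88.7% (replicate 2) in the BP tumours, 79.0% in MP+BP, 53.3% in MP and 67.4% in PD+MP, and Ccnd1 most of the rest, from 10.3% to 42.6%. These shares rest on 112197 to 384987 UMIs per tumour, and their 95% Wilson intervals, which cover counting error only, were narrower than 1 percentage point.

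Outside the SyS-like cells the D-cyclin make-up was more even on average. SyS naming markers were also counted in those classes, and their part in the shares was not tested. Ccnd2 held on average 55.4% of D-cyclin UMIs in stromal, 31.6% in endothelial-like and 38.7% in macrophage-like cells, against 75.0% in SyS-like cells. Its share was higher in SyS-like cells of all 5 tumours against each class, by 19.6 ± 15.4 percentage points against stromal, 43.4 ± 9.81 against endothelial-like and 36.3 ± 6.15 against macrophage-like cells (SD, n = 5). Ccnd1 instead was the most frequent D cyclin of endothelial-like cells in 4 of 5 tumours (all but BP replicate 2), at 59.6% on average, and its share there exceeded that of SyS-like cells by 36.9 points in mean, in 5 of 5 tumours. Against stromal cells the Ccnd1 share was lower in SyS-like cells in 3 of 5 tumours and higher in MP and PD+MP (exact permutation p = 0.25). Ccnd3 was on average the smallest part in each of these classes, 2.38% in SyS-like, 8.66% in stromal, 8.85% in endothelial-like and 17.6% in macrophage-like cells. With 5 pairs the two-sided exact paired permutation test cannot go below p = 0.0625, the value that each other share difference between SyS-like cells and a class reached (Benjamini-Hochberg adjusted 0.0670 over 15 such tests). With the likely doublets kept, the Ccnd2 share was still higher in 5 of 5 tumours, by smaller differences of 11.03, 26.9 and 14.5 points.

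**Figure D1:**
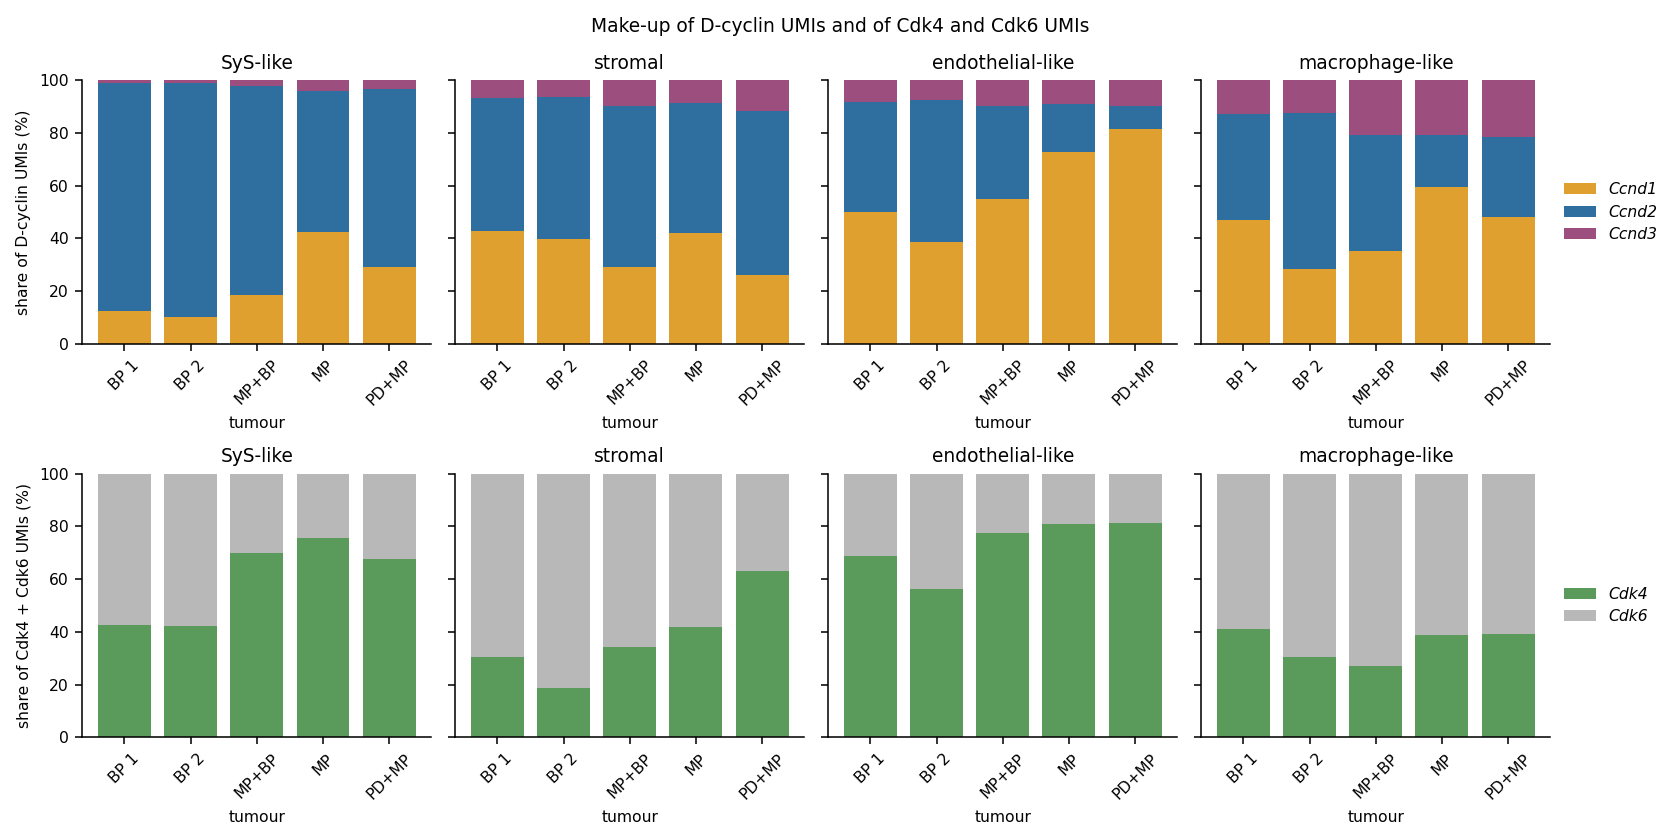
Make-up of the D-cyclin UMIs (upper panels) and of the Cdk4 plus Cdk6 UMIs (lower panels), in percent, for each tumour (bars) in 4 cell classes. Ccnd2 fills 53.3% to 88.7% of the SyS-like bars, and Cdk4 exceeds Cdk6 in the SyS-like bars of MP+BP, MP and PD+MP but not of the BP tumours.

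As levels, Ccnd2 averaged 2071 ± 1252 CPM in SyS-like, 395 ± 101 in stromal, 181 ± 125 in endothelial-like and 84.2 ± 44.3 in macrophage-like cells (SD, n = 5 tumours). Its level was higher in SyS-like cells of all 5 tumours, by 1.95 on the log2 scale against stromal (SE 0.274, adjusted p = 0.000892 by edgeR's quasi-likelihood method with Benjamini-Hochberg adjustment), 3.34 against endothelial-like (SE 0.216, adjusted p = 1.44e-06) and 3.94 against macrophage-like cells (SE 0.212, adjusted p = 5.26e-08). Endothelial-like cells held 4.66% to 10.96% and macrophage-like cells 2.51% to 5.86% of the SyS-like Ccnd2 level of their own tumour. The SyS naming markers appeared in these classes at 3.11% to 5.04% and 3.28% to 4.97%, and their part in the Ccnd2 counts was not tested. Stromal Ccnd2 stood at 14.0% to 39.6%, where the markers stood at 4.95% to 10.5%. Among rarer classes with at least 20 cells, T/NK-like cells, a lymphoid class in which Ccnd2 is known to be used, had 616 ± 315 CPM (n = 5).

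Ccnd1 averaged 474 ± 86.3 CPM in SyS-like, 324 ± 88.1 in endothelial-like, 268 ± 113 in stromal and 88.9 ± 15.2 in macrophage-like cells. It was higher in SyS-like than in macrophage-like cells of 5 of 5 tumours (log2 1.81, SE 0.138, edgeR adjusted p = 7.24e-07). Against endothelial-like cells the Ccnd1 difference was 0.36 (SE 0.132, adjusted p = 0.0447), with 4 of 5 tumours higher, and it missed the threshold without either BP tumour, MP or MP+BP (adjusted p from 0.0868 to 0.187). Against stromal cells Ccnd1 was higher in 5 of 5 tumours but did not pass (log2 0.68, SE 0.261, adjusted p = 0.0813). The neighbours in this order, endothelial-like and stromal, overlapped between tumours. Ccnd3 was lower in SyS-like than in stromal cells (log2 -0.51, SE 0.159, adjusted p = 0.0398), a call lost without BP replicate 1, BP replicate 2, MP or MP+BP (adjusted p from 0.058 to 0.139) or with total counts (-0.26, adjusted p = 0.253), and did not pass against endothelial-like or macrophage-like cells (-0.20 and -0.13). By CPM, however, Ccnd3 was higher in SyS-like than in macrophage-like cells of 5 of 5 tumours, and scaled by total counts that difference was 0.47 (adjusted p = 0.0112). The highest Ccnd3 mean of the named classes was that of T/NK-like cells, 186 ± 69.4 CPM (95.6 to 269, n = 5), above the 49.5 ± 8.40 CPM of SyS-like cells in each tumour.

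**Figure D2:**
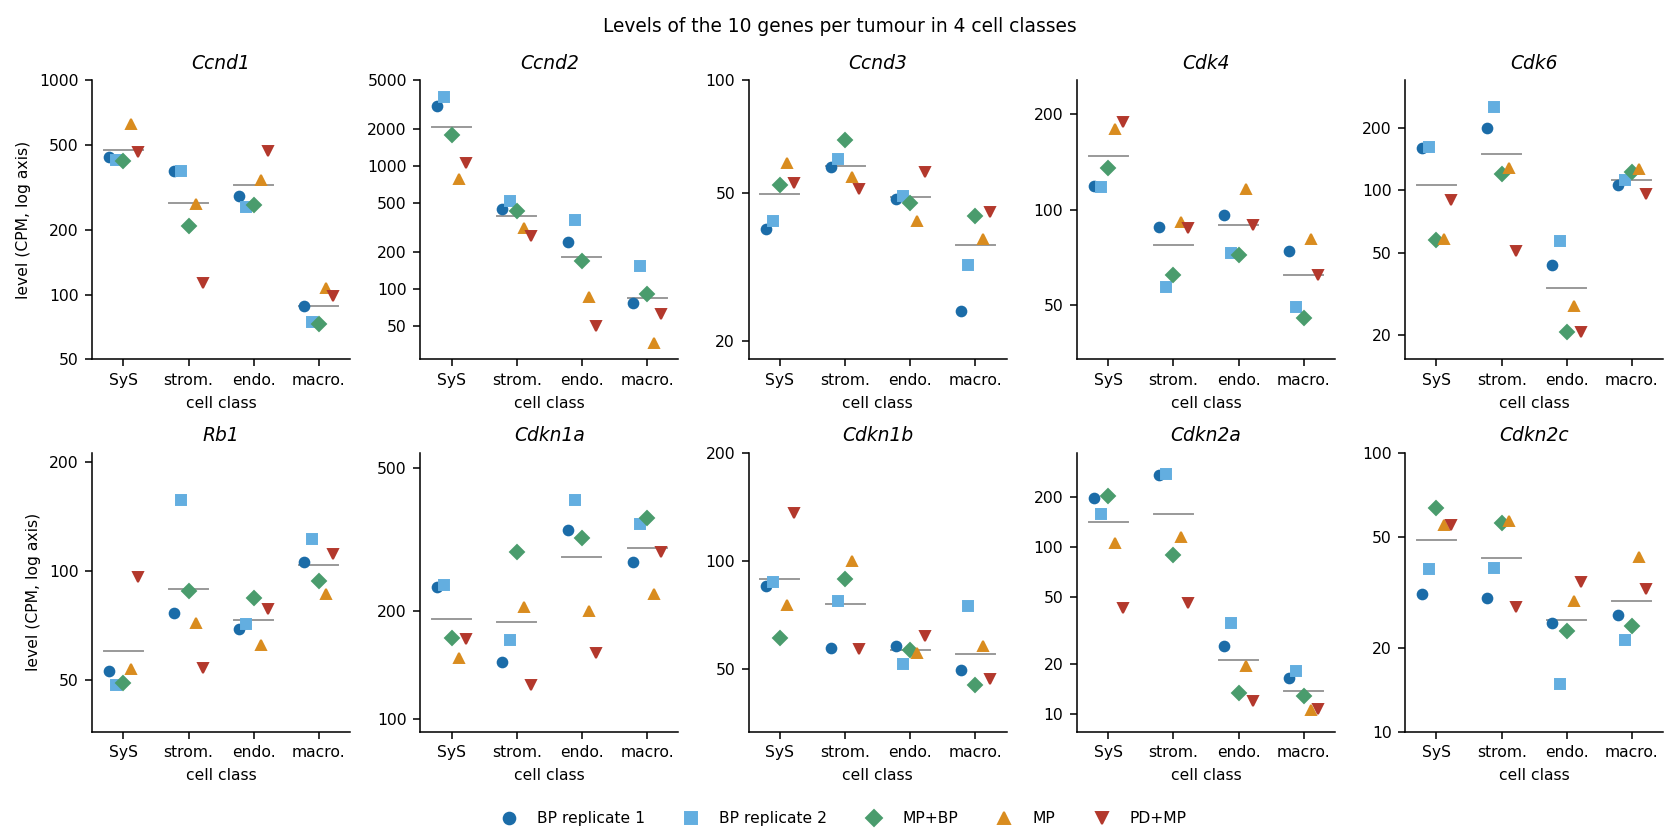
Level of each of the 10 genes (CPM, log axis) in SyS-like, stromal, endothelial-like and macrophage-like cells, with 1 symbol per tumour and a grey line at the mean of 5 tumours. Ccnd2 falls from 2071 CPM in SyS-like to 84.2 CPM in macrophage-like cells, Cdkn2a is high in SyS-like and stromal cells, and the means of Rb1 and Cdkn1a are highest in macrophage-like cells. In both BP tumours, however, Cdkn1a is higher in endothelial-like cells, and in BP replicate 2 Rb1 is higher in stromal cells.

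Cdk4 (chr10:127063534-127067920, plus strand) and Cdk6 (chr5:3341485-3531008, plus strand) encode the related kinases that D cyclins activate. The SyS-like level of Cdk4 was 119 CPM and 118 CPM in the BP tumours, 135 in MP+BP, 179 in MP and 189 in PD+MP. Cdk6 went the other way, at 160.5 and 161 CPM in the BP tumours, 57.8 in MP+BP, 57.9 in MP and 90.2 in PD+MP. Cdk4 thus held 42.6% and 42.2% of the Cdk4 plus Cdk6 UMIs in the BP tumours and 67.7% to 75.6% in the other 3. Cdk4 was higher in SyS-like cells of all 5 tumours than in each class, by 0.68 (log2, SE 0.162, edgeR adjusted p = 0.0128) against stromal, 0.49 (SE 0.159, adjusted p = 0.0268) against endothelial-like and 0.65 (SE 0.161, adjusted p = 0.00469) against macrophage-like cells. The stromal Cdk4 call was lost without MP+BP (adjusted p = 0.0535) and among non-cycling cells (0.0529), and the endothelial one without BP replicate 2, MP or MP+BP (adjusted p from 0.0572 to 0.0714).

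Cdk6 had a different order. Its mean level was 150.0 ± 77.5 CPM in stromal, 113 ± 12.3 in macrophage-like, 105 ± 52.2 in SyS-like and 33.8 ± 15.9 in endothelial-like cells, and the first 3 overlapped. It was higher in SyS-like than in endothelial-like cells of 5 of 5 tumours (log2 1.34, SE 0.189, edgeR adjusted p = 0.000241). Against macrophage-like cells the fitted Cdk6 difference was negative (-0.83, SE 0.268, adjusted p = 0.019), although by CPM it was lower in only 3 of 5 tumours, and it missed the threshold without MP (adjusted p = 0.0769) or MP+BP (0.079), without the tumour as a block (0.0603) and with total counts (-0.23, adjusted p = 0.452). Against stromal cells Cdk6 did not pass (-0.73, SE 0.285, adjusted p = 0.084), while without PD+MP, whose stromal cells were mostly fibroblast-like, it did (-1.02, adjusted p = 0.00158), as it did against pericyte-like cells alone (-1.05, adjusted p = 0.000489). In make-up, the Cdk4 share was higher in SyS-like than in stromal cells by 22.0 ± 13.6 points and than in macrophage-like cells by 24.2 ± 17.3 points, and lower than in endothelial-like cells by 13.4 points in mean, each in 5 of 5 tumours (exact permutation p = 0.0625, the smallest possible). Mast-like cells had the highest Cdk6 level, 229 ± 33.2 CPM in the 2 tumours with enough of them.

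Rb1 (chr14:73183673-73325822, minus strand) encodes RB, the substrate of CDK4 and CDK6 that releases E2F when phosphorylated. In SyS-like cells it was at 53.1, 48.7, 49.1 and 53.8 CPM in BP replicate 1, BP replicate 2, MP+BP and MP, and at 96.3 CPM in PD+MP. PD+MP alone was high. Rb1 was lower in SyS-like than in macrophage-like cells of 5 of 5 tumours (log2 -1.43, SE 0.173, edgeR adjusted p = 2.95e-05), where its mean was 104 ± 14.4 CPM against 60.2 ± 20.3 CPM. Against endothelial-like cells (73.3 ± 8.56 CPM) the Rb1 difference was -0.57 (SE 0.190, adjusted p = 0.0294), lower in 4 of 5 tumours and lost without BP replicate 1, BP replicate 2, MP or MP+BP (adjusted p from 0.0571 to 0.109). Against stromal cells Rb1 did not pass over all 5 tumours (-0.79, adjusted p = 0.0773) and passed without PD+MP (-1.10, adjusted p = 0.00152). Of the annotated genes that overlap Rb1, Gm17233 lies on the same strand over 3649 bases, so that reads there can belong to either.

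Cdkn1a (chr17:29090976-29100727, plus strand) encodes p21, the inhibitor that p53 and other stress signals induce. Its SyS-like level was 232 and 235 CPM in the BP tumours, 168 in MP+BP, 148 in MP and 167 in PD+MP. The BP tumours were high and the other 3 close to each other. Cdkn1a was lower in SyS-like cells (190.3 ± 40.6 CPM) than in macrophage-like cells (299.7 ± 57.2 CPM, log2 -1.26, SE 0.159, edgeR adjusted p = 4.31e-05, lower in 5 of 5 tumours) and endothelial-like cells (283 ± 104 CPM, log2 -0.74, SE 0.189, adjusted p = 0.0084, lower in 4 of 5). PD+MP was the tumour in which endothelial-like Cdkn1a, 153 CPM, was not above that of SyS-like cells. Against stromal cells the Cdkn1a difference was -0.18 with adjusted p = 0.644. Cdkn1b (chr6:134920401-134925513, plus strand), which encodes p27, the inhibitor of quiescent cells, stood at 85.1, 87.4, 61.0, 75.5 and 136 CPM in the order above, with PD+MP highest. It differed past the threshold from no class (log2 0.36 against endothelial-like, 0.07 against macrophage-like and -0.05 against stromal cells, edgeR adjusted p from 0.136 to 0.923). By CPM Cdkn1b was nevertheless higher in SyS-like than in endothelial-like and in macrophage-like cells of 5 of 5 tumours.

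Genes known as p53 targets or as responses to tissue dissociation also differed between the classes, and their part in the Cdkn1a levels was not tested. Of 14 p53 response genes, 6 were higher and 4 lower in SyS-like than in endothelial-like cells (Ccng1 log2 1.24, Mdm2 -0.37), and 7 were higher and 4 lower than in macrophage-like cells (Mdm2 -1.94). Against stromal cells 1 was higher and 1 lower. Of 11 dissociation stress genes, 0 were higher and 8 lower in SyS-like than in stromal cells, 2 higher and 8 lower than in endothelial-like cells, and 2 higher and 6 lower than in macrophage-like cells. Their summed level was 4187 to 5560 CPM in SyS-like, 7203 to 9700 in stromal, 5438 to 6686 in endothelial-like and 4220 to 6281 in macrophage-like cells. Over the tested genes that neither clustering nor the cycle lists had used, 17.1% were called higher and 9.14% lower against stromal cells. Those shares were 31.1% and 18.3% against endothelial-like, and 37.4% and 22.5% against macrophage-like cells.

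The promoter of the upstream Cdkn1a start is shown because p53 is among the signals that induce this gene. Capitals mark 2 matches to the p53 response element decamer, searched on both strands. At least 1 such match was held by 8.36% of 32851 RefSeq mouse promoter windows. The window, from RefSeq on GRCm38.p6, is chr17:29090729-29091028 on the plus strand and runs from 250 bases before to 50 bases after the start. A match is a description of the letters and not evidence of binding in these cells.
Cdkn1a, upstream start: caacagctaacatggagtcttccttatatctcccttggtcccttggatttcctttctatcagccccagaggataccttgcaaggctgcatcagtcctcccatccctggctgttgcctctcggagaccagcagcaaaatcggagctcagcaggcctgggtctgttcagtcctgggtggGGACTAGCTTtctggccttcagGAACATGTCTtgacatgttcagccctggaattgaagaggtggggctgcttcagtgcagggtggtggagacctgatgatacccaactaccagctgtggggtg

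Cdkn2a (chr4:89274471-89294653, minus strand) encodes p16INK4a and, from another first exon and reading frame, p19ARF. Its level in SyS-like cells was 198 and 159 CPM in BP replicates 1 and 2, 202 CPM in MP+BP, 106 CPM in MP and 43.3 CPM in PD+MP. It was thus present in all 5 tumours, highest in the 3 with biphasic histology and lowest in PD+MP, a range of 4.67-fold. The 95% exact Poisson interval of the lowest value, 41.8 to 44.8 CPM from 3136 UMIs, covers counting error only. Cdkn2a was higher in SyS-like cells of all 5 tumours than in endothelial-like cells (21.1 ± 9.56 CPM, log2 2.50, SE 0.249, edgeR adjusted p = 2.38e-05) and macrophage-like cells (13.7 ± 3.40 CPM, log2 2.61, SE 0.244, adjusted p = 3.9e-06). In those classes it stood at 6.58% to 27.7% and 6.30% to 24.6% of the SyS-like level, above the share of the SyS naming markers in each tumour. Their lowest Cdkn2a count was 7 UMIs, in the endothelial-like cells of PD+MP.

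Cdkn2a was also found in stromal cells, where it did not differ from SyS-like cells past the threshold. The stromal level was 269.9 and 273 CPM in BP replicates 1 and 2, 89.2 in MP+BP, 114 in MP and 46.1 in PD+MP, or 44.2% of the SyS-like level in MP+BP and 106% to 172% of it in the other 4 (log2 -0.32, SE 0.254, edgeR adjusted p = 0.382). In pericyte-like cells alone Cdkn2a was at 262, 278, 78.2, 115 and 156 CPM in that order. The SyS naming markers in the stromal sums reached 4.95% to 10.5% of their SyS-like level. Levels of Cdkn2a in dendritic-like cells were 5.87 ± 4.40 CPM (n = 4).

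The 2 products of Cdkn2a cannot be separated here, because 3′ tags fall in exons that both share. Cdkn2a-201 (the p16INK4a form) and Cdkn2a-202 (the p19ARF form) have the same second exon (chr4:89276645-89276985, 341 bases) and share 234 bases of the third, while their first exons, of 207 and 320 bases, are not shared. Their start regions are printed to show where they differ. The first lies at chr4:89294570-89294869 and the second at chr4:89282143-89282442, both minus strand, RefSeq, GRCm38.p6. Capitals mark matches to the E2F words TTTCCCGC, TTTCGCGC, TTTGCCGC or TTTGGCGC on either strand, none of which overlaps another motif searched, and which 2.26% of 32851 promoter windows held.
Cdkn2a, p19ARF start: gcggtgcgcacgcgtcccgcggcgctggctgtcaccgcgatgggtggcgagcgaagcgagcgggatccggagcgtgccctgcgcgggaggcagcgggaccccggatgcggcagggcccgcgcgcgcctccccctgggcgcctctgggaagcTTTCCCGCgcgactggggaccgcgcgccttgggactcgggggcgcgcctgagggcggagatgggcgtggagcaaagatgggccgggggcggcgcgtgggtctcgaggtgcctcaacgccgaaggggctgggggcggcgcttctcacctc
Cdkn2a, p16INK4a start: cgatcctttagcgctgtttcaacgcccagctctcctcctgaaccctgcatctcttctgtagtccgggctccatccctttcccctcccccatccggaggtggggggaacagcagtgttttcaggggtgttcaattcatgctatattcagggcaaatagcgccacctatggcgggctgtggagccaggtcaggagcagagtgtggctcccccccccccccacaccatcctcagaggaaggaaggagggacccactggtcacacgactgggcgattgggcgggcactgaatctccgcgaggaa
The p19ARF window held 1 such word and the p16INK4a window none.

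Cdkn2c (chr4:109660876-109667189, minus strand) encodes p18INK4c, an INK4 inhibitor known to be under E2F control. Its level in SyS-like cells was 31.1 and 38.4 CPM in the BP tumours, 63.2 in MP+BP and 54.8 in both MP and PD+MP. The smallest of these rested on 2084 UMIs (95% exact Poisson interval 29.8 to 32.5 CPM). Cdkn2c was higher in SyS-like than in endothelial-like cells of 5 of 5 tumours (48.5 ± 13.2 against 25.2 ± 7.32 CPM, log2 0.73, SE 0.188, edgeR adjusted p = 0.00917). Among non-cycling cells alone this difference was 0.07 with adjusted p = 0.816. Against macrophage-like and stromal cells the Cdkn2c differences, 0.11 and -0.03, did not pass (adjusted p = 0.604 and 0.925). Its upstream RefSeq start region is printed because Cdkn2c is the member that differed most between cycle states. It lies at chr4:109666707-109667006, minus strand, GRCm38.p6, and has no capitals because neither the 4 E2F words nor TTTGAA, the CHR element of genes of mitosis, which 17.9% of promoter windows held, was in it on either strand.
Cdkn2c, upstream start: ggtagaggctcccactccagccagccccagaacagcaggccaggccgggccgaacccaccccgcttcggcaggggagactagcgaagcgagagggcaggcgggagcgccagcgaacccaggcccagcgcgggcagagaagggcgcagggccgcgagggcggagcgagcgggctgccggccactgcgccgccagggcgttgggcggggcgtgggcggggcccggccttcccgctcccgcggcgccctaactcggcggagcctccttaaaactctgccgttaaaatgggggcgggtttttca
Of the 10 genes, 7 had a promoter entry, with 11 windows in all, of which 1 held an E2F word, 1 the p53 decamer and 0 the CHR element. Ccnd1, Ccnd2 and Rb1 had no entry.

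Counted together, 3 of the 10 genes were called against stromal, 8 against endothelial-like and 7 against macrophage-like cells. Against stromal cells 2 were higher (Ccnd2, Cdk4) and 1 lower (Ccnd3) in SyS-like cells, where 17.1% and 9.14% (26.2% in all) of 15782 tested genes that neither clustering nor the cycle lists had used were called. Against endothelial-like cells 6 were higher (Ccnd1, Ccnd2, Cdk4, Cdk6, Cdkn2a, Cdkn2c) and 2 lower (Rb1, Cdkn1a), beside 31.1% and 18.3% (49.4%) of 16058 genes. Against macrophage-like cells 4 were higher (Ccnd1, Ccnd2, Cdk4, Cdkn2a) and 3 lower (Cdk6, Rb1, Cdkn1a), beside 37.4% and 22.5% (59.9%) of 15700 genes. Medians over the 10 genes were -0.11, 0.42 and 0.09 on the log2 scale, and over all genes tested 0.17, 0.17 and 0.24. Scaled by total counts instead of by trimmed means, the all-gene medians moved to 0.42, 0.41 and 0.84, and directions are best read relative to them.

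Of 32 other genes of the G1/S pathway, 5 were higher and 1 lower in SyS-like than in stromal cells, 10 and 8 against endothelial-like, and 13 and 5 against macrophage-like cells (edgeR, adjusted p under 0.05). Mycn, the MYC family factor of embryonic tissue, was among the 3 largest rises in each, at 1.85, 1.13 and 4.25 on the log2 scale. Myc itself was lower, by -2.72 against stromal, -1.92 against endothelial-like and -0.69 against macrophage-like cells. Skp2, the F-box protein that marks p27 for destruction, was higher against stromal (1.33) and endothelial-like cells (1.18), and its cofactor Cks1b against stromal cells (0.95). Cdkn1c, which encodes p57, the CIP/KIP inhibitor not among the 10 genes, was higher against endothelial-like (2.10) and macrophage-like cells (3.11), and E2f7, an E2F repressor, against macrophage-like cells (1.91). E2f4, the E2F of quiescent cells, was lower against endothelial-like (-0.88) and macrophage-like cells (-0.76), and the phosphatase Cdc25a against endothelial-like cells (-0.83).

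Of the ways to group the labels, 1 was tested, the 3 tumours with biphasic histology in the label (both BP and MP+BP) against MP and PD+MP. Both BP tumours against the other 3, the split that the Cdk6 and Cdkn1a levels above follow, was not tested. Ccnd2 was 2834 ± 963 CPM (SD, n = 3; 1779 to 3666) in the SyS-like cells of the first and 925 ± 202 CPM (n = 2; 783 and 1068) in those of the second. Cdkn2a was 186 ± 24.0 against 74.4 ± 44.0 CPM, and Cdk4 was 124 ± 9.66 against 184 ± 7.38 CPM. For 7 of the 10 genes (Ccnd1, Ccnd2, Ccnd3, Cdk4, Rb1, Cdkn1a and Cdkn2a) the CPM of the groups did not overlap, beside 26.5% of 18232 genes. Ccnd2, Cdkn1a and Cdkn2a were higher on the biphasic side, and Ccnd1, Ccnd3, Cdk4 and Rb1 lower. The nearest values of the groups, biphasic first, were close for Ccnd1 (437 and 464 CPM), Rb1 (53.1 and 53.8 CPM), Ccnd3 (52.3 and 53.2 CPM) and Cdkn1a (168 and 167 CPM), and farther apart for Ccnd2 (1779 and 1068 CPM), Cdk4 (135 and 179 CPM) and Cdkn2a (159 and 106 CPM).

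None of these differences passed the edgeR test over all genes, in which 0% of genes were called higher, 0% lower and 0% in all. The largest was that of Ccnd2, log2 1.53 (SE 0.412, adjusted p = 0.453), followed by Cdkn2a at 1.24 (SE 0.384, adjusted p = 0.455) and Cdk4 at -0.67 (SE 0.168, adjusted p = 0.453). In simulated counts the label test recovered 0% of genes changed by 1 on the log2 scale and 15.2% of those changed by 2. Differences of this size could thus go uncalled. Of 20926 genes tested, 2131 had an unadjusted p under 0.05, and DESeq2 called 557 genes, among them Ccnd2 (log2 1.54, adjusted p = 0.0227) and no other of the 10. Without MP, edgeR called 633 genes, among the 10 only Cdkn2a (1.98, adjusted p = 0.0383). That fit sets PD+MP alone against 3 tumours, so all of its spread comes from the biphasic side, PD+MP is assumed to vary like them, and its calls describe 1 tumour. The median over the 10 genes was -0.42 and over all genes -0.02. Histology cannot be told apart here from other differences between 5 tumours, including their cycling shares, which were highest in MP and PD+MP.

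Cycle states were set within cells of at least 3000 UMIs after thinning each cell to 3000, from lists of S-phase and G2/M genes that hold none of the 10. A cell with at least 5 UMIs of either list was called cycling and one with at most 1 of each non-cycling. Cycling cells made up 18.4% and 25.6% of SyS-like cells in BP replicates 1 and 2, 19.1% in MP+BP, 28.6% in MP and 49.9% in PD+MP, against 6.94% to 26.2% of endothelial-like and 4.84% to 22.2% of macrophage-like cells. A share of 7.75% of the SyS-like cells scored (2054 of 26519) lay within 1 UMI of the limit, and 4205 shallower SyS-like cells were left out. Before thinning, cycling cells were deeper, with medians per tumour of 11382 to 15869 UMIs against 7678.5 to 10772.

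Cdkn2c rose most of the 10 genes in cycling SyS-like cells. Its level was 74.7, 87.9, 131, 109 and 79.9 CPM in cycling cells and 16.5, 14.0, 39.9, 23.2 and 18.8 CPM in non-cycling cells (BP replicate 1, BP replicate 2, MP+BP, MP, PD+MP). No cycling sum was as low as any non-cycling sum, and the ratio within a tumour ran from 3.29 to 6.27. The edgeR difference with the tumour as a block was 2.13 on the log2 scale (SE 0.109, adjusted p = 1.06e-06). Cdk4 rose by 0.44 (SE 0.0456, adjusted p = 9.51e-05), from 109, 100.4, 117, 159 and 169 CPM to 151, 144, 187, 211 and 208 CPM (BP replicate 1, BP replicate 2, MP+BP, MP, PD+MP). Rb1 rose by 0.47 (SE 0.0721, adjusted p = 0.000909) and Cdkn1a by 0.41 (SE 0.0987, adjusted p = 0.00939), each in 5 of 5 tumours, with ranges over tumours that overlapped between the states. With cycling set at 3 UMIs instead of 5, Cdkn1a no longer passed (0.25, adjusted p = 0.0696). Of the 11 dissociation stress genes 0 were higher and 6 lower in cycling cells. Of the 14 p53 response genes 5 were higher and 2 lower, beside 20.3% and 21% of 15613 genes. The part of these 2 lists in the Cdkn1a difference was not tested.

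Ccnd2 was the member that fell with cycling. It went from 3247 to 2650.1 CPM and from 3934 to 3171 CPM in the BP tumours, from 1891 to 1564 in MP+BP, from 796 to 719.9 in MP and from 1291 to 919.8 in PD+MP. The direction was the same in all 5 tumours, while the tumours differed from each other by more than the states did (log2 -0.34, SE 0.0439, edgeR adjusted p = 0.000344). Ccnd2 kept the largest D-cyclin share in both states of every tumour, for example 71.9% in non-cycling and 63.8% in cycling cells of PD+MP, where it changed most. Ccnd1 (-0.11), Ccnd3 (-0.03), Cdkn1b (0.05) and Cdkn2a (0.03) did not pass, and Cdk6 did not pass over all 5 (0.24, SE 0.0849, adjusted p = 0.0514) but did without BP replicate 1 (adjusted p = 0.0272). With PD+MP left out, the Cdkn2a estimate was -0.11, since only in PD+MP (51.1 against 31.3 CPM) and MP was it higher in cycling cells. In all 4 genes rose and 1 fell, beside 20.3% of 15613 genes called higher and 21% lower (41.3% in all), with medians of 0.15 over the 10 genes and -0.02 over all. Without the tumour as a block, 1 of the 10 genes, Cdkn2c, was called.

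**Figure D3:**
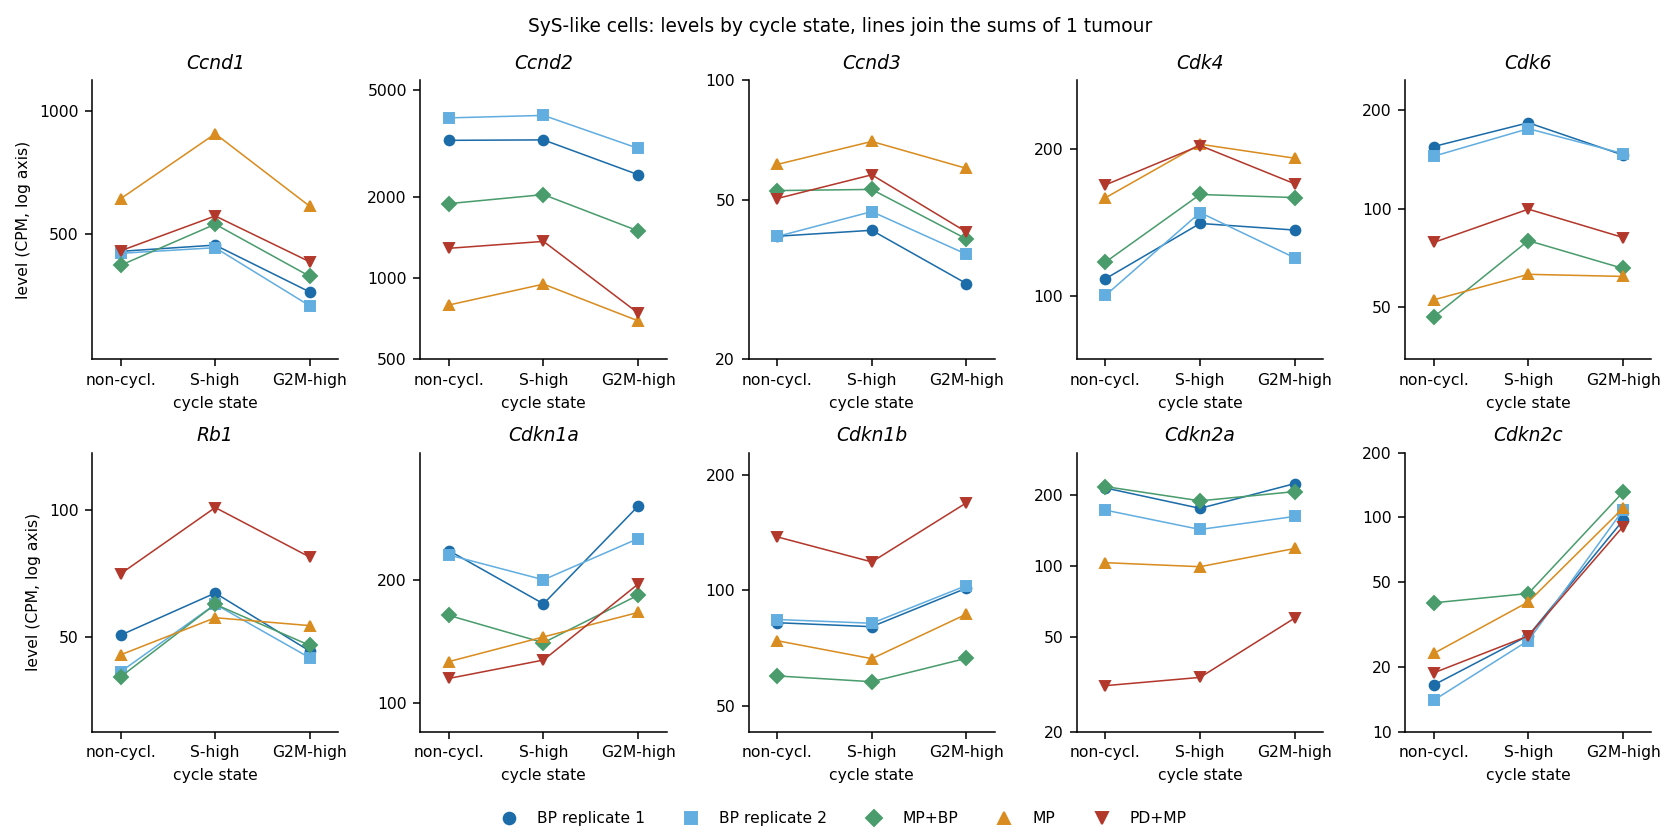
Level of each gene (CPM, log axis) in non-cycling, S-high and G2M-high SyS-like cells, with 1 symbol per tumour and lines joining the sums of 1 tumour. Cycling cells high for both the S-phase and the G2/M list are not shown. Cdkn2c climbs to between 90.5 and 131 CPM in G2M-high cells of all 5 tumours, the D cyclins and Rb1 are higher in S-high than in G2M-high cells of each tumour, and the order of the tumours changes little for Ccnd2.

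Among cycling SyS-like cells, those high only for S-phase genes (S-high) were compared with those high only for G2/M genes (G2M-high). Cells high for both lists, 222, 683, 500, 560 and 1247 per tumour (BP replicate 1, BP replicate 2, MP+BP, MP, PD+MP), counted as cycling but were in neither group. For Rb1, Cdk4 and Cdkn1a, and no other member, the mean of all cycling cells (71.0, 180 and 231 CPM) exceeded those of S-high (67.9, 171 and 158 CPM) and G2M-high cells (53.7, 155 and 220 CPM). Cdkn2c was 28.1, 26.6, 44.1, 40.3 and 28.0 CPM in S-high and 96.7, 108, 131, 110.3 and 90.5 CPM in G2M-high cells (BP replicate 1, BP replicate 2, MP+BP, MP, PD+MP), with no overlap (log2 -1.70, SE 0.0768, edgeR adjusted p = 7.25e-10). All 3 D cyclins were higher in S-high cells of 5 of 5 tumours, Ccnd1 by 0.45 (SE 0.0466, adjusted p = 8.27e-06), Ccnd2 by 0.53 (SE 0.0612, adjusted p = 2.68e-05) and Ccnd3 by 0.38 (SE 0.0649, adjusted p = 0.000744). Non-cycling cells lay between the phases in mean. Ccnd2 averaged 2328 CPM in S-high, 2232 in non-cycling and 1678 in G2M-high cells, and Ccnd1 579, 477 and 420 CPM. The lower pooled Ccnd2 level was thus not seen in the S-high mean, and S-high against non-cycling cells was not tested. Rb1 (0.34, adjusted p = 0.00252) and Cdk6 (0.25, adjusted p = 0.0067) were higher in S-high cells as well, and Cdk4 did not pass (0.15, adjusted p = 0.0705).

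The inhibitors went the other way. Cdkn1a was 175, 200.3, 141, 145 and 128 CPM in S-high and 303, 253, 184, 167 and 196 CPM in G2M-high cells, higher in G2M-high cells within every tumour (-0.46, SE 0.0734, edgeR adjusted p = 0.000428). Cdkn1b (-0.36, SE 0.0567, adjusted p = 0.000439) and Cdkn2a (-0.33, SE 0.0794, adjusted p = 0.00846) followed, so that all 4 inhibitors were called toward G2M-high cells. In all 5 genes were higher and 4 lower in S-high cells, beside 11.6% and 10.5% (22.1% in all) of 12814 genes, with medians of 0.20 over the 10 genes and 0.03 over all. Without the tumour as a block Cdkn2c alone was called here too. Cdkn1a averaged 158 CPM in S-high, 174 in non-cycling and 220 in G2M-high cells. Its rise in all cycling cells was thus not seen in the S-high mean, and S-high against non-cycling cells was not tested. Of the 14 p53 response genes 0 were higher and 5 lower in S-high cells, among them Ccng1 (-0.49) and Mdm2 (-0.21), and their part in the Cdkn1a difference was not tested.

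Of the 32 other pathway genes, 17 were higher and 5 lower in cycling cells, beside 20.3% and 21% of 15613 genes. The largest rises were those of the E2F repressors E2f8 (log2 5.01) and E2f7 (2.86) and of the E-type cyclin Ccne2 (2.14), and the largest falls those of the INK4 gene Cdkn2b (-0.33), Cdk7 (-0.30), the CDK-activating kinase, and Fbxo4 (-0.19), an F-box protein that targets cyclin D1. Between phases 8 were higher in S-high cells, led by E2f1 (1.59), Ccne2 (1.34) and Ccne1 (1.18). The 7 that were higher in G2M-high cells were led by Cdkn2d (-1.02), the INK4 gene of p19INK4d, Cks1b (-0.68) and Cdkn1c (-0.66).

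**Figure D4:**
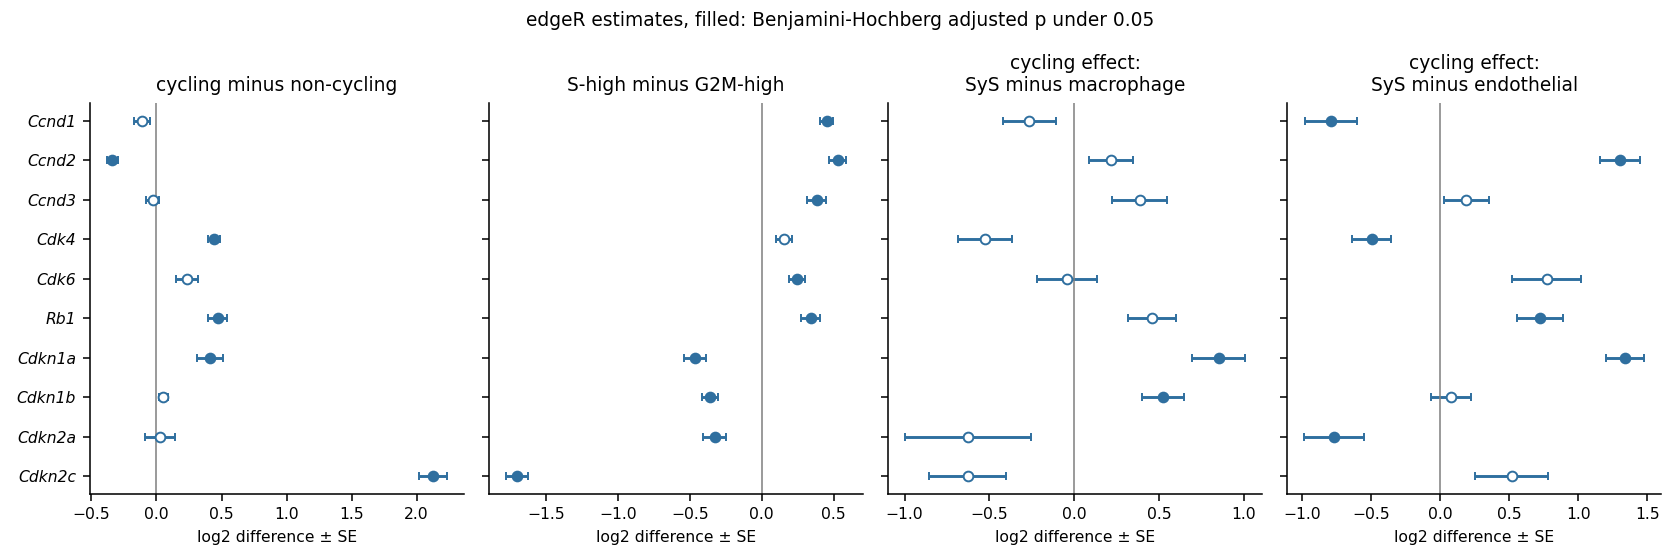
Log2 differences with their SE from edgeR for the 10 genes, for cycling minus non-cycling and S-high minus G2M-high SyS-like cells, and for how much the cycling difference of SyS-like cells exceeds that of macrophage-like or endothelial-like cells. Filled points have an adjusted p under 0.05, as for Cdkn2c at 2.13 and -1.70 in the panels of SyS-like cells and for Cdkn1a at 0.85 and 1.34 in the panels of class differences.

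Whether the cycling difference itself differed between classes was tested as an interaction. Against macrophage-like cells, 2 of the 10 genes passed, both upward, beside 2.78% of 13499 genes higher and 4.36% lower (7.13% in all), with medians of 0.09 and -0.02. Cdkn1a rose with cycling in SyS-like cells of all 5 tumours, whereas in macrophage-like cells it was 194.5, 370.5, 215, 214 and 256 CPM in cycling and 310.4, 357, 377, 241 and 309 CPM in non-cycling cells (BP replicate 1, BP replicate 2, MP+BP, MP, PD+MP), lower in 4 of 5 (difference of differences 0.85, SE 0.156, edgeR adjusted p = 0.00305). Cdkn1b was lower in cycling macrophage-like cells of 5 of 5 tumours (0.53, SE 0.125, adjusted p = 0.016), a call lost without BP replicate 1 (adjusted p = 0.126), BP replicate 2 (0.0741) or MP (0.0576). Cdk4 did not pass over all 5 tumours (-0.53, adjusted p = 0.0547) but did without BP replicate 2 (0.0253) or MP+BP (0.0339), and Rb1 did not pass (0.46, adjusted p = 0.0575) except without MP (0.0247). Macrophage-like Cdkn2c was 68.7 to 121 CPM in cycling and 12.1 to 19.7 CPM in non-cycling cells, higher in 5 of 5 tumours, and its interaction did not pass (-0.63, adjusted p = 0.107).

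Against endothelial-like cells the interaction used 4 tumours, since PD+MP had 14 cycling endothelial-like cells, fewer than the 20 required, and 6 of the 10 genes passed, 3 in each direction. The share of genes called was 6.05% higher and 1.41% lower (7.45% in all) of 14424, with medians of 0.36 over the 10 genes and 0.16 over all. Endothelial-like Cdkn1a was 375, 468, 388 and 262 CPM in non-cycling and 189.8, 249, 253 and 148 CPM in cycling cells (BP replicate 1, BP replicate 2, MP+BP, MP), lower in cycling cells of all 4 tumours and without overlap between states, opposite to SyS-like cells (1.34, SE 0.139, edgeR adjusted p = 1.75e-05). Ccnd1 was 245, 242, 247 and 228 CPM in non-cycling and 585, 264, 339 and 500.5 CPM in cycling endothelial-like cells, higher in all 4 and again without overlap, while it did not pass in SyS-like cells (-0.79, SE 0.190, adjusted p = 0.0135). Ccnd2 was lower in cycling endothelial-like cells of 4 of 4 tumours, at 44.8 to 166 CPM against 113 to 338 CPM in non-cycling cells, a larger difference than in SyS-like cells (1.30, SE 0.145, adjusted p = 2.94e-05). With the likely doublets kept this interaction was 0.38 (adjusted p = 0.297), and with cycling set at 3 UMIs instead of 5 it was 0.42 (adjusted p = 0.307).

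Cdk4 was higher in cycling endothelial-like cells of 4 of 4 tumours, at 124 to 188 CPM against 63.4 to 84.4 CPM, a larger difference than in SyS-like cells (-0.50, SE 0.139, edgeR adjusted p = 0.0315). That Cdk4 call was lost without BP replicate 2 (adjusted p = 0.0587) or MP (0.0689). Rb1 passed too (0.73, SE 0.166, adjusted p = 0.0101, but 0.366 without MP), as did Cdkn2a (-0.77, SE 0.217, adjusted p = 0.0322, but 0.0996 without BP replicate 2 and 0.0565 without MP+BP). The Cdkn2a levels behind it in endothelial-like cells were 12.4 to 30.2 CPM without and 17.2 to 55.2 CPM with cycling, and the SyS naming markers were also counted in that class. Cdkn2c was higher in cycling endothelial-like cells of 4 of 4 tumours, at 43.4 to 69.8 CPM against 11.1 to 19.2 CPM, and its interaction did not pass (0.52, adjusted p = 0.262). Dissociation stress genes moved in the same direction as Cdkn1a in these interactions, 4 of 11 called higher against macrophage-like and 9 of 11 against endothelial-like cells with 0 lower, as did 2 and 4 of the 14 p53 response genes, and their part was not tested. The shares of all genes called higher in the 2 interactions were 2.78% and 6.05%. Of the other pathway genes 0 were higher and 5 lower against macrophage-like cells, led by Cks1b (-2.42), Cdkn2d (-0.95) and Rbl1 (-0.78), a member of the RB family. Against endothelial-like cells 3 were higher (Cdk2 0.93, Cdc25a 0.83 and Fbxw7 0.52) and 4 lower, led by Cks1b (-1.99), Tfdp1 (-0.66) and Ccnh (-0.54).

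Across the 20 SyS-like clusters Ccnd2 was the main D cyclin without exception, with 57.9% to 91.5% of D-cyclin UMIs, whereas the Cdk4 share of Cdk4 plus Cdk6 UMIs ran from 17.4% to 82.6%. Many clusters came mostly from 1 tumour, so differences between clusters and between tumours cannot be told apart. Cdkn2c ran from 12.6 to 168 CPM, Cdk4 from 21.0 to 228 CPM and Cdkn2a from 25.5 to 236 CPM. The lowest Cdkn2c and Cdk4 values came from 1 cluster of 71 cells and rest on 3 and 5 UMIs, and without it these genes ran from 12.9 to 168 and from 43.5 to 228 CPM. In 5 clusters with 5593 cells the median UMI count was under 3000, and there Cdk4 was 21.0 to 84.9 CPM against 93.4 to 228 CPM in the other 15, and Cdkn1a 46.2 to 115 CPM against 113 to 319 CPM. Depth moved with these levels, and its part in them was not tested.

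**Figure D5:**
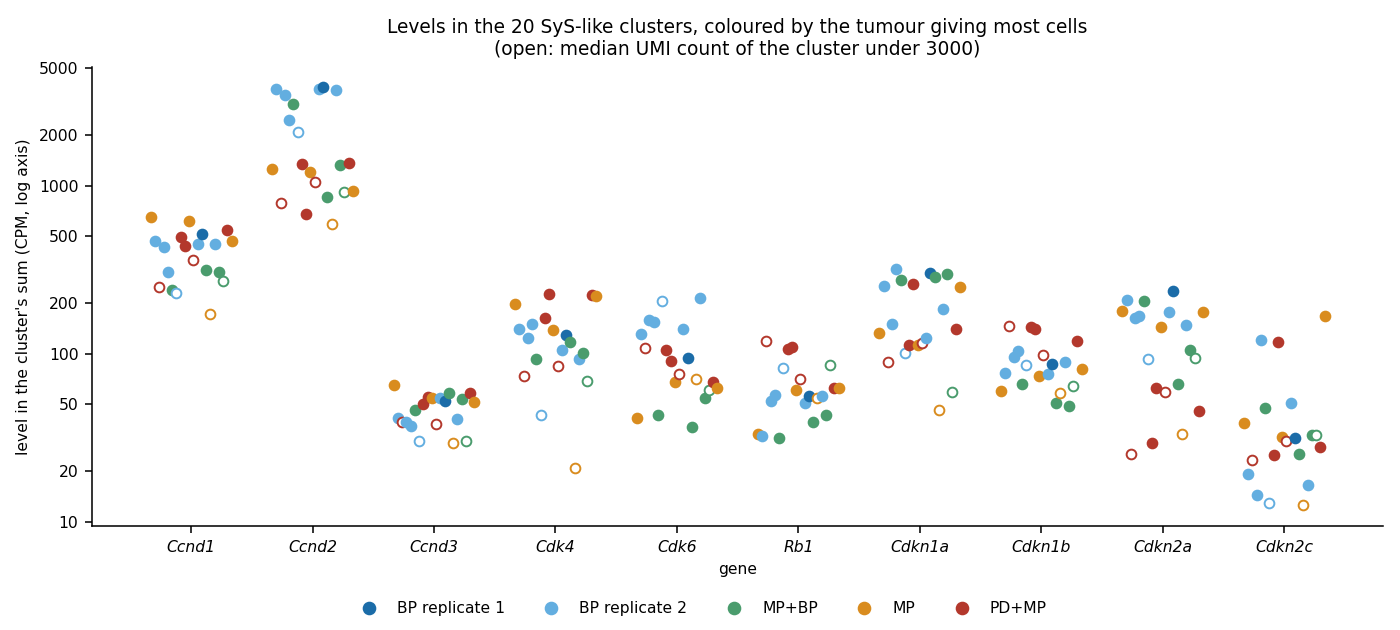
Level of each gene (CPM, log axis) in the 20 SyS-like clusters, coloured by the tumour that gave most cells, with open symbols for 5 clusters whose median UMI count was under 3000. Ccnd2 lies between 2086 and 3855 CPM in clusters led by a BP tumour and between 592 and 1374 CPM in those led by MP or PD+MP, while the 4 clusters led by MP+BP lie between 862 and 3072 CPM, and Cdkn2c ranges from 12.6 to 168 CPM.

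The genes most alike to each D cyclin were ranked by Pearson correlation of log2 CPM over 20 sums (4 classes in 5 tumours) among 10962 genes, as a description only, since these sums share tumours, libraries and depth. For Ccnd2 they were Cask (0.960), Wnk3 (0.957) and Atn1 (0.951), for Ccnd1 Foxc1 (0.958), Arl6ip6 (0.958) and Ssb (0.948). For Ccnd3 the closest values were lower, Camk2g (0.829), Cdc42ep5 (0.829) and Pdp1 (0.828).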

How the data were processed

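Tissue of 5 tumours was dissociated and profiled with the 10x Genomics 3′ v3.1 kit, and the deposited counts are UMIs per gene and cell made by the authors with Cell Ranger 7.2.0 (per the file headers) against mm10 (per the labels). Reference release, intron setting and strand use are not given in the sources used here. Cells with at least 750 genes and at most 25% mitochondrial UMIs were kept. The highest Scrublet scores, 0.8% per 1000 cells, were removed as doublets, a rule set after the automatic threshold marked 0 cells in 2 tumours. Of 51670 called cells 464 barcodes were shared between tumours.

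Cells were clustered on 3000 Pearson-residual features without the listed genes (30 components, 20 neighbours, Leiden resolution 1, Scanpy 1.11.5) and named from at least 3 fixed markers. The naming rule was changed after the data were seen, and its earlier form is an alternative. Counts were summed per tumour and class or state (at least 20 cells) and tested with the edgeR 4.0.16 quasi-likelihood test (R 4.3.3) after filterByExpr and TMM scaling, with the tumour as a block except for the labels, and Benjamini-Hochberg adjustment over all genes, called at 0.05. The block joins sums of the same tumour by construction. Scripts were tested on simulated counts with changes planted in some genes. Of changes of 1 on the log2 scale, 0% were recovered for the labels and 14.4% against stromal cells. That share was 39.2% against endothelial-like and 32.0% against macrophage-like cells, 91.6% for cycling and 88% for the phases. Of changes of 2, 15.2% were recovered for the labels and 57.4% against stromal cells. Alternatives were DESeq2 1.42.0, total counts, no filter, doublets kept, stricter cells, other cycling limits, no block and leaving out each tumour. Members, lists and comparisons were chosen with earlier results of these data known. All 10 members are named, other pathway genes by at most the 3 largest called differences in each direction, and Mdm2 and Ccng1 of the p53 list.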

Additional observations from a re-analysis of the deposited data

Results flagged for a closer look

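Among 11 values examined over 5 tumours, 2 lay farther from the others than Dixon's limit of 0.710 for 5 values, where chance gives about 1 in 20. Ccnd1 in the SyS-like cells of MP was 626 CPM, with a gap to the next tumour of 0.784 of the whole range. Rb1 in the SyS-like cells of PD+MP was 96.3 CPM, with a gap of 0.894 of the range.

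For 8 pairs of gene and class the cycling difference of SyS-like cells differed from that of another class by the edgeR interaction test. Against macrophage-like cells these were Cdkn1a (0.85 on the log2 scale, adjusted p = 0.00305) and Cdkn1b (0.53, adjusted p = 0.016). Against endothelial-like cells, in 4 tumours, they were Ccnd1 (-0.79), Ccnd2 (1.30), Cdk4 (-0.50), Rb1 (0.73), Cdkn1a (1.34) and Cdkn2a (-0.77), with adjusted p from 1.75e-05 to 0.0322. Those of Cdkn1a and Ccnd1 passed in each setting tried, whereas the other 5 missed the threshold in at least 1 setting.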

How the results depend on the processing

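Over the settings other than leaving out a tumour, 278 called values of the 10 genes stayed called and 37 did not, and 29 values gained a call. When each tumour of a fit was left out in turn, 168 stayed called and 26 did not, and 8 gained a call. No called value changed direction. Of the values not called, 22 changed direction over those settings and 16 when a tumour was left out, and they are not counted among the gains. Ccnd3 against macrophage-like cells with total counts was among the 22 and was called in its new direction. The cause of the changes below was not tested.

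Against stromal cells 5 members were called with DESeq2 and 5 with doublets kept, instead of 3, and 1 to 5 when a tumour was left out. Scaling by total counts turned Cdkn1a (0.0675), Cdkn1b (0.20) and Cdkn2c (0.22), no filter turned Cdkn1b (0.0125) and Cdkn2c (0.0285), and Cdkn2c was 0.0882 under the earlier naming rule and 0.0169 in cells with at least 1500 genes. Leaving out a tumour, Cdkn1a ran from -0.34 to 0.0458, Cdkn1b from -0.30 to 0.15 and Cdkn2c from -0.20 to 0.0616. Against endothelial-like cells total counts gave Ccnd3 at 0.0226, and 5 to 8 members were called when a tumour was left out. Against macrophage-like cells total counts gave Ccnd3 at 0.47 (adjusted p = 0.0112) and ended the call of Cdk6 (-0.23), while in non-cycling cells Cdkn1b was -0.0218 and Cdkn2c -0.14, and leaving out a tumour gave -0.15 to 0.19 and -0.0378 to 0.24.

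The tumour as a block mattered most for the cycle states. With no replicate block 1 member and 762 genes were called between cycling and non-cycling cells, instead of 5 and 7460, and 1 member and 302 genes between S-high and G2M-high cells, instead of 9 and 3458, and Cdkn2a in the former was -0.0809. With no replicate block 5 members instead of 8 were called against endothelial-like cells. No paired analysis was possible because no tumour stands on both sides for the comparison of labels.

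Between cycling and non-cycling cells Ccnd3 was 0.00897 with total counts and -0.0676 to 0.0140 without 1 tumour, and Cdkn2a was -0.00626 with doublets kept, -0.0414 with the limit at 3 UMIs and -0.11 to 0.0800 without 1 tumour. Between S-high and G2M-high cells DESeq2 called 2059 genes. With the limit at 3 UMIs the mean cycling share was 41.7% in SyS-like, 25.6% in endothelial-like and 21.6% in macrophage-like cells. For the labels DESeq2 called 1 member and 557 genes, leaving out a tumour 0 to 1 members and 0 to 633 genes, Cdkn2c was 0.13 in non-cycling cells and Cdkn1b -0.92 to 0.00994 without 1 tumour.

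For the interaction with macrophage-like cells 5 members were called without the filter and 6 with doublets kept, which called 3449 genes and gave Ccnd2 at -0.77 and Cdk6 at 0.29. The earlier naming rule called 742 genes instead of 1265, and leaving out a tumour 1 to 4 members and 483 to 887 genes, with Cdk6 from -0.13 to 0.0569. For endothelial-like cells Cdkn1b was -0.00235 with DESeq2, -0.0601 with total counts, -0.0830 without the filter and -0.10 with doublets kept, and the limit at 8 UMIs, which also left 3 tumours instead of 4 with enough cells, called 1032 genes instead of 1570. Leaving out each of the 4 tumours called 564 to 1113 genes, fewer each time, with Ccnd3 from -0.0652 to 0.19 and Cdkn1b from -0.31 to 0.13. Depth limits the rarer sums, such as 7 Cdkn2a UMIs in the endothelial-like cells of PD+MP.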

Other observations

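Some classes too small for a comparison had distinct levels of the 10 genes (CPM of summed UMIs, mean ± SD over tumours with at least 20 cells). T/NK-like cells had Cdkn1b at 147 ± 43.0 CPM and Rb1 at 112 ± 21.6 CPM (n = 5), and dendritic-like cells had Cdkn1b at 141 ± 21.1 CPM and Cdk4 at 30.2 ± 13.5 CPM (n = 4). Cdkn1a was at 425 ± 87.6 CPM in mast-like cells (n = 2), the class in which Cdk6 was also high. Neutrophil-like cells had Ccnd3 at 99.5 ± 15.5 CPM (n = 3), with the SyS naming markers at 1283 to 3662 CPM in the same sums. The 1 cluster left unnamed, of 135 cells, carried B-cell and dendritic markers and had Rb1 at 188 ± 42.3 CPM and Ccnd3 at 144 ± 41.3 CPM (n = 3).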
